A study of Mus musculus with 12 samples.

Results

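A set of 10 genes that mark tissue macrophages, above all the macrophages of the splenic red pulp, were followed in RNA sequencing libraries of sorted mouse B cells. The genes were chosen by name (*Vcam1*, *Csf1r*, *Emr1*, *Cd5l*, *Spic*, *C1qa*, *C1qb*, *C1qc*, *Hmox1* and *Slc40a1*), with their levels in these libraries already known. They are 10 of the 13574 genes with a row in either deposited count table. All 10 had a row in the table of freshly sorted cells and 7 had one in the table of cultured cells. *C1qa*, *C1qb* and *C1qc* had none there.

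The cells were follicular B cells, the recirculating mature B cells of the spleen, sorted from male mice and described as negative for CD21/35 and positive for CD23. WT mice carried an intact X-linked *Gpr174* gene (Gpr174+/Y). In KO mice (Gpr174-/Y) the single coding exon had been replaced by tdTomato, a red fluorescent protein, in all cells of the animal and not in B cells alone. GPR174 is a G-protein-coupled receptor. RNA came from cells frozen right after the sort (0 h) or kept for 4 h in complete RPMI with no stimulus added, in 3 libraries for each of 4 groups, named by genotype and time (such as WT 0 h).

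Macrophages of the red pulp engulf aged red blood cells, break down their heme and return the iron to the blood. The transcription factor Spi-C is needed for their development, and signaling by the CSF1 receptor keeps macrophages alive in most tissues. They also make C1q, the recognition unit of the classical complement pathway, whose A, B and C chains are encoded by neighbouring genes. Neither C1q nor the CSF1 receptor is a product that follicular B cells are known for, whereas Spi-C has also been described in B cells.

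Library totals ran from 6098941 to 11618787 reads, and *Rn45s*, the ribosomal RNA precursor, took 6.65% to 11.3% of a library. Levels are given as CPM, that is reads scaled to a common library size, on which 3 reads equal 0.268 to 0.484 CPM. The smallest row in either table held 10 reads over its 6 libraries, so a gene without a row had at most 9. *Gpr174* itself was at 149 to 169 CPM in WT and 73.4 to 118 CPM in KO libraries, where sequence outside the coding exon can still be counted. *Fcer2a*, which encodes CD23, a marker used in the sort, was at 1531 ± 46.6 CPM in fresh WT and 1334 ± 105 in fresh KO cells (mean ± SD, n = 3).

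Regions upstream of the RefSeq start of 4 members were found in the RefSeq promoter set. That of *Spic* lies inside the span that GENCODE gives the gene, which reaches further upstream. The 3 that overlapped no annotated exon are shown because they belong to a gene that dropped below the row cutoff in culture (*C1qb*) and to genes that kept a row with at least 22 reads in every cultured library (*Cd5l* and *Spic*). Each runs 5′ to 3′ over the 250 bases before the RefSeq start site on GRCm38.p6 (mm10). Capitals mark GAGGAA, the core bound by PU.1 and Spi-C, and TGCTGA, a core of MAF sites, on either strand.
C1qb (chromosome 4, 136886201 to 136886450, minus strand): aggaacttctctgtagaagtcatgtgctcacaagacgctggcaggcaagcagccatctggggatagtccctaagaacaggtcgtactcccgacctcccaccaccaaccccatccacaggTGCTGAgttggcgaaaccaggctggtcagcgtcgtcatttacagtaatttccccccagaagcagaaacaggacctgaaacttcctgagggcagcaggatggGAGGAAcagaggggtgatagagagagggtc
Cd5l (chromosome 3, 87357631 to 87357880, plus strand): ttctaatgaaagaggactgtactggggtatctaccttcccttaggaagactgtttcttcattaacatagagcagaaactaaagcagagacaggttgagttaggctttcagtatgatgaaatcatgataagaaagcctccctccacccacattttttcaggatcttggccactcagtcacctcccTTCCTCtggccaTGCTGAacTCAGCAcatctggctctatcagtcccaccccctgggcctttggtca
Spic (chromosome 10, 88683024 to 88683273, minus strand): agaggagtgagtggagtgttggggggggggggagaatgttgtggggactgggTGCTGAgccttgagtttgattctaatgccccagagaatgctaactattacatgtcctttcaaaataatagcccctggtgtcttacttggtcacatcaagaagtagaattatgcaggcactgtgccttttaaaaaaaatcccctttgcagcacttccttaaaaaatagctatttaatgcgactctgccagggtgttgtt

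*C1qb* and *Cd5l* held both motifs, *Spic* only TGCTGA, and *C1qc*, the region not shown, only GAGGAA. Of the 32851 upstream regions of the same length, 23.3% held GAGGAA and 16.1% held TGCTGA. The matches describe letters in these windows and not sites of binding.

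In freshly sorted cells all 10 genes were detected in each of the 6 libraries, and their levels in WT and KO overlapped for every one. *Vcam1*, an adhesion molecule that red pulp macrophages display on their surface (chromosome 3, 116109949 to 116129688, minus strand), was at 12.8, 9.97 and 7.23 CPM in WT and 8.71, 9.62 and 7.56 CPM in KO. *Csf1r*, the receptor for CSF1 and IL-34 (chromosome 18, plus strand), was at 12.5, 6.94 and 8.03 CPM in WT and 10.4, 11.2 and 9.21 CPM in KO. Exons of *Vcam1* overlap the antisense gene *Gm43109* and those of *Csf1r* overlap *Hmgxb3* on the opposite strand, and reads of such pairs could not be told apart. *Emr1*, which encodes the F4/80 antigen and is now named *Adgre1* (chromosome 17, 57358691 to 57483527, plus strand), was at 8.44, 4.03 and 4.82 CPM in WT and 3.54, 1.48 and 4.81 CPM in KO.

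*Emr1* was the most uneven of the 10 in fresh cells. The variance of its reads over the 6 libraries was 8.97 times that of counting error, against 1.27 to 4.05 times for the other 9.

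*Cd5l*, a secreted scavenger protein of macrophages (chromosome 3, 87357881 to 87371073, plus strand), was at 11.0, 7.62 and 8.30 CPM in fresh WT cells and 10.1, 10.2 and 11.0 CPM in fresh KO cells. *Spic* (chromosome 10, 88674772 to 88685015, minus strand) was at 6.30, 8.51 and 6.96 CPM in WT and 5.56, 7.84 and 5.22 CPM in KO. The variance of their reads over the 6 fresh libraries was 1.90 and 1.96 times that of counting error.

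The C1q genes lie side by side on the minus strand of chromosome 4, with *C1qb* from 136880129 to 136886187, *C1qc* from 136889804 to 136893065 and *C1qa* from 136895917 to 136898803. *C1qb* was at 6.30, 3.36 and 3.21 CPM in fresh WT cells and 4.04, 5.18 and 4.54 CPM in fresh KO cells. *C1qc* was at 5.74, 6.50 and 3.66 CPM in WT and 5.18, 4.00 and 3.99 CPM in KO. *C1qa* was the lowest member, at 0.788, 2.35 and 1.61 CPM in WT and 2.15, 2.37 and 1.51 CPM in KO, which rest on 7 to 21 reads a library.

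*Hmox1*, the enzyme that opens the heme ring (chromosome 8, 75093621 to 75100589, plus strand), was at 7.09, 10.4 and 9.46 CPM in fresh WT cells and 8.71, 9.47 and 9.76 CPM in fresh KO cells. *Slc40a1*, ferroportin, through which iron leaves the cell (chromosome 1, 45908068 to 45926523, minus strand), was at 5.40, 6.05 and 7.41 CPM in WT and 6.69, 6.66 and 4.81 CPM in KO. Ranges of the genotypes overlapped for both genes, as for the rest.

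Log2 fold changes of KO over WT at 0 h ran from -0.79 ± 0.37 (SE) for *Emr1* to 0.35 ± 0.44 for *C1qa*, and those of the other 8 members from -0.25 to 0.23. Among all 11345 genes tested for genotype at 0 h, 0.987% were called at an adjusted p under 0.05 (edgeR). The members were selected with these levels in view, so their own differences are given without a test.

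For levels per kilobase, the exons of all annotated transcripts of a gene were joined, which gave 9 kb for *Slc40a1* and 8.87 kb for *Vcam1*. The order of genes depends on these lengths. Per kilobase of exon, mean levels over the 6 fresh libraries were in the order *Hmox1* (5.23 CPM per kb), *Cd5l* (4.77), *C1qb* (4.08), *C1qc* (2.51), *Spic* (1.75), *C1qa* (1.73), *Csf1r* (1.68), *Emr1* (1.40), *Vcam1* (1.05) and *Slc40a1* (0.686). The ranges of every neighbouring pair in that order overlapped. In cultured cells the order was *Cd5l* (2.77 CPM per kb), *Emr1* (1.84), *Spic* (1.62), *Hmox1* (0.614), *Csf1r* (0.420), *Slc40a1* (0.131) and *Vcam1* (0.0373). There the only neighbours that did not overlap were *Spic*, whose lowest library was at 1.37, and *Hmox1*, whose highest was at 1.11 CPM per kb.

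**Figure D1:**
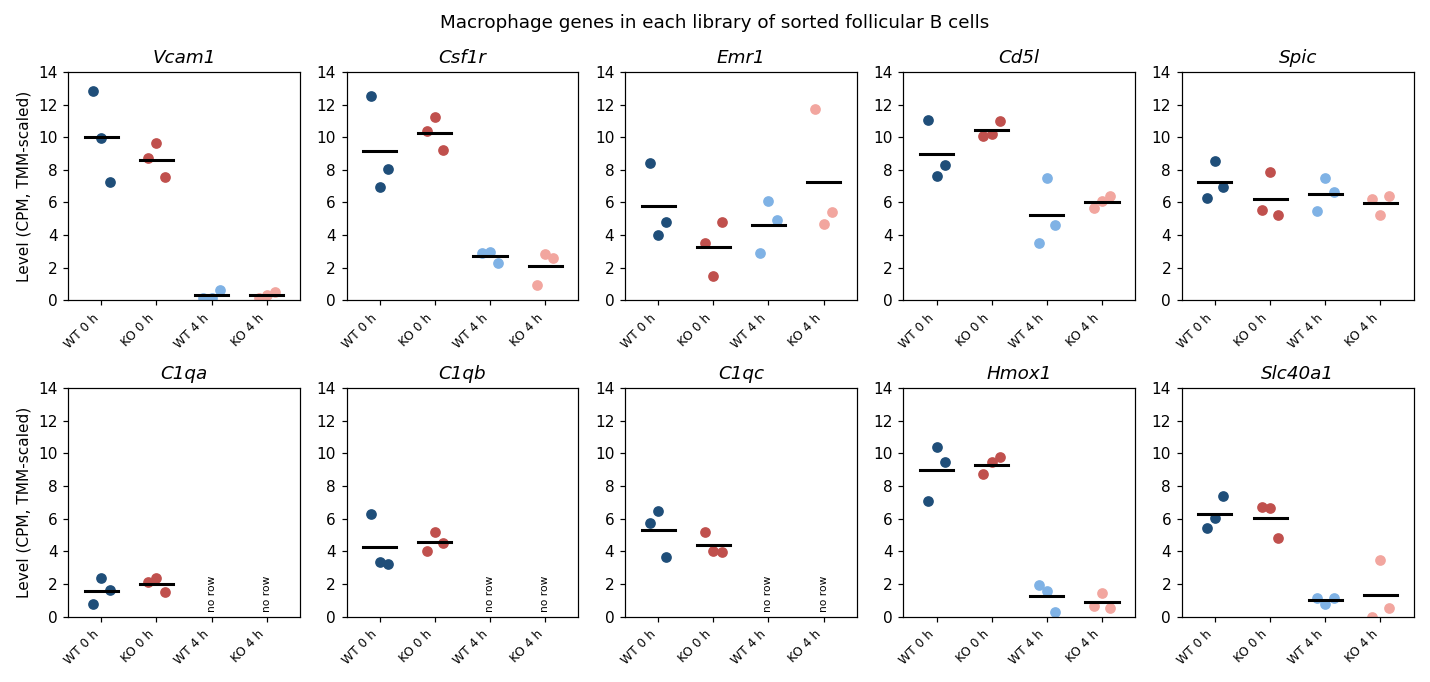
Level of each macrophage gene (CPM on TMM-scaled library sizes, linear axis) in the 3 libraries of each group (points) with the group mean (line); "no row" marks genes below the row cutoff of the cultured table. Vcam1 fell from 7.23 to 12.8 CPM in fresh cells to at most 0.632 CPM in culture, while Spic stayed between 5.22 and 8.51 CPM throughout.

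Over 4 h of culture the 10 genes did not move as a block. Levels of *Vcam1*, *Hmox1*, *Slc40a1* and *Csf1r* in every cultured library were below those in every fresh library, by 3.35 to 31.6 times in group means, and the C1q genes dropped below the row cutoff. *Cd5l* was lower in every cultured library too, but by 1.72 times in WT and 1.73 times in KO. *Spic* and *Emr1* overlapped between fresh and cultured cells. In bulk RNA, fewer cells of a type and less RNA per cell cannot be told apart.

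*Vcam1* showed the widest difference. It was at 0.161, 0.156 and 0.632 CPM in cultured WT cells (1, 1 and 6 reads) and 0.132, 0.358 and 0.543 CPM in cultured KO cells (1, 3 and 4 reads). The log2 fold change of 4 h over 0 h was -4.74 ± 0.41 in WT and -4.59 ± 0.42 in KO. The value in WT became -5.84 without WT 4 h replicate 3, which held 6 of the reads of its group. From pooled reads it was 27.0-fold lower in WT (95% interval 13.5 to 63.2) and 25.1-fold lower in KO (12.5 to 59.0), by an exact binomial interval that covers counting error only.

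*Hmox1* was at 1.93, 1.56 and 0.316 CPM in cultured WT cells and 0.658, 1.43 and 0.543 CPM in cultured KO cells. The change was -2.94 ± 0.37 on the log2 scale in WT and -3.35 ± 0.38 in KO. *Slc40a1* was at 1.13, 0.781 and 1.16 CPM in cultured WT cells, a log2 change of -2.59 ± 0.55. Its KO libraries differed widely, at 0, 3.46 and 0.543 CPM (0, 29 and 4 reads), and the log2 change of -2.11 ± 0.53 became -4.42 without KO 4 h replicate 2.

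*Csf1r* was at 2.90, 2.97 and 2.32 CPM in cultured WT cells and 0.921, 2.87 and 2.58 CPM in cultured KO cells. The log2 change was -1.76 ± 0.30 in WT and -2.26 ± 0.31 in KO. All cultured libraries still held reads of the receptor, from 7 to 24.

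The 3 C1q genes held 90 (*C1qa*), 222 (*C1qb*) and 247 (*C1qc*) reads over the 6 fresh libraries and at most 9 each over the 6 cultured ones. Even if all 9 reads fell in 1 genotype, *C1qc* was at least 12.7-fold lower in WT and 11.5-fold lower in KO, and *C1qb* at least 10.3-fold and 11.8-fold lower. For *C1qa*, with fewer reads to begin with, the bounds were 3.89-fold in WT and 5.20-fold in KO. Of the 10833 genes with 90 or more reads in the fresh table, 6 had no row in the cultured one. These were *C1qc*, *C1qb*, *C1qa*, *Fcna* (130 reads), which encodes the ficolin of macrophages, *Hpgd* (116), which inactivates prostaglandins, and *Igf1* (95), a growth factor. *Igf1* was on no list, and the limit of 90 reads is the total of *C1qa* and was set after its value was seen.

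*Cd5l* was at 3.55, 7.50 and 4.64 CPM in cultured WT cells and 5.66, 6.09 and 6.38 CPM in cultured KO cells. Its log2 change was -0.79 ± 0.23 in each genotype. The highest cultured library, WT 4 h replicate 2, lay just under the lowest fresh one, at 7.50 against 7.62 CPM.

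*Spic* was at 5.48, 7.50 and 6.64 CPM in cultured WT cells and 6.19, 5.25 and 6.38 CPM in cultured KO cells. Its log2 change was -0.15 ± 0.22 in WT and -0.06 ± 0.23 in KO. *Emr1* was at 2.90, 6.09 and 4.95 CPM in cultured WT cells (log2 change -0.29 ± 0.38) and 11.7, 4.66 and 5.43 CPM in cultured KO cells (1.13 ± 0.40). The highest *Emr1* level of all 12 libraries was thus in KO 4 h replicate 1 (89 reads), without which the change in KO was 0.60. Without WT 0 h replicate 1, the highest fresh library, the sign in WT turned, to 0.07.

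**Figure D2:**
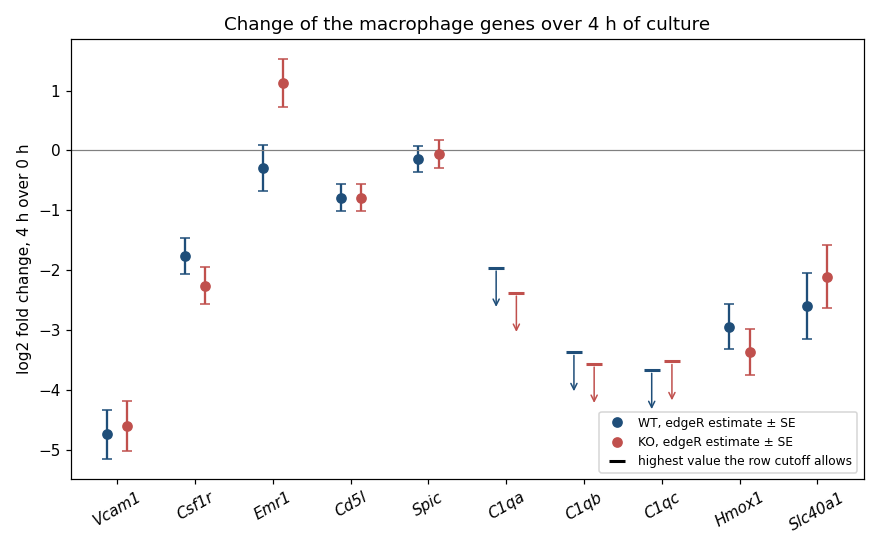
Log2 fold change of 4 h over 0 h for each macrophage gene in WT and KO, as edgeR estimates (points) with standard errors (bars); short lines with arrows give the highest value that the row cutoff allows for the C1q genes. Vcam1 lies at -4.74 and -4.59, Spic near 0, and Emr1 at -0.29 in WT and 1.13 in KO.

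After culture, WT and KO again overlapped for each of the 7 members with a row. The estimates of KO over WT were -0.33 ± 0.38 for *Csf1r*, 0.22 ± 0.26 for *Cd5l*, -0.14 ± 0.21 for *Spic*, 0.63 ± 0.34 for *Emr1* and -0.38 ± 0.61 for *Hmox1* on the log2 scale. *Vcam1* and *Slc40a1* were too low to enter that fit. Among all 11123 genes tested there, 10.9% were called. Differences between the genotypes in the culture change were 0.15 ± 0.83 for *Vcam1*, -0.50 ± 0.44 for *Csf1r*, -0.002 ± 0.38 for *Cd5l*, 0.09 ± 0.31 for *Spic*, 1.42 ± 0.56 for *Emr1*, -0.42 ± 0.60 for *Hmox1* and 0.48 ± 0.80 for *Slc40a1* (KO minus WT, log2). Of all 11572 genes tested, 6.39% were called for this difference.

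The summed level of the 10 genes fell from 67.6 ± 8.03 CPM in fresh WT cells to 21.8 ± 4.36 CPM in cultured WT cells, and from 65.2 ± 2.84 to 23.9 ± 1.44 CPM in KO (mean ± SD, n = 3). The ratio of 4 h to 0 h was 0.322 in WT and 0.367 in KO, and that of KO to WT was 0.964 at 0 h and 1.10 at 4 h. *Spic*, *Cd5l* and *Emr1* together made up 28.7% to 33.7% of the sum in fresh libraries and 66.1% to 93.2% in cultured ones. The other 7 genes alone went from 45.6 ± 5.02 to 5.34 ± 0.858 CPM in WT and from 45.3 ± 3.62 to 4.68 ± 3.23 CPM in KO, where the cultured libraries stood at 1.71, 8.12 and 4.21 CPM. This split was drawn after the levels were seen.

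**Figure D3:**
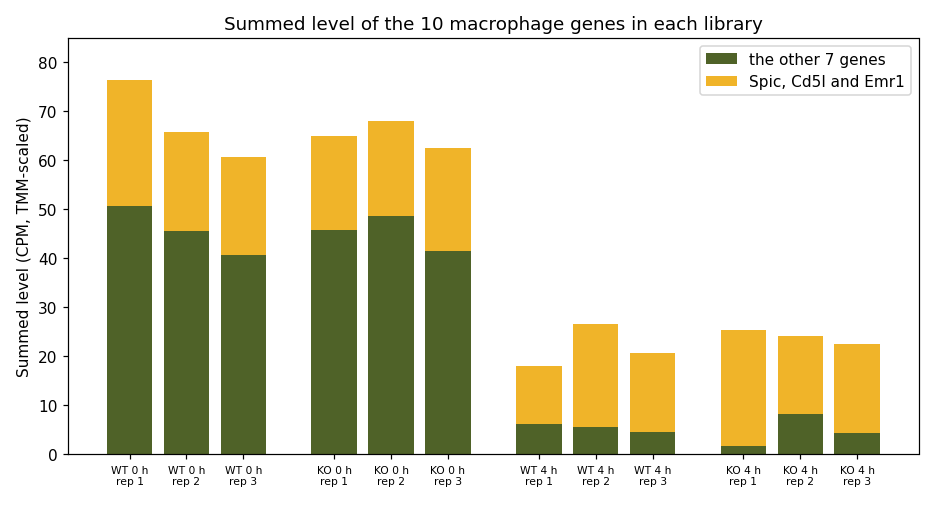
Summed level (CPM on TMM-scaled library sizes) of the 10 macrophage genes in each of the 12 libraries, stacked as Spic, Cd5l and Emr1 (top) over the other 7 genes (bottom). The sum lies between 60.7 and 76.4 CPM in fresh libraries and between 18.1 and 26.6 CPM in cultured ones, where the top part is 66.1% to 93.2% of it.

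Across the 12 libraries, the log2 levels of *Vcam1*, *Csf1r*, *Hmox1*, *Slc40a1* and *Cd5l* followed the mean of the other members in both tables with Pearson r of 0.944, 0.947, 0.904, 0.848 and 0.814. For *Spic* r was 0.170 and for *Emr1* it was -0.414. These values mostly restate the step from fresh to cultured cells, which the points share. Within the 6 fresh libraries alone the same r ran from -0.915 (*Hmox1*) to 0.505 (*Vcam1*), in counts of 10 to 114 reads a gene.

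Of 12236 other genes, those whose pattern over the 12 libraries was most like the mean of the members were *Plaur*, *Bcor*, *Hes1*, *Tln1*, *Ralgds*, *Tcea3*, *Spib*, *Trf*, *Crip1* and *Txnip*, with r of 0.974 to 0.982. All 10 were lower on average in cultured than in fresh cells, for example *Hes1* at 40.1 and 3.69 CPM and *Spib* at 777 and 392 CPM. By Spearman rank correlation 1 of these 10 remained among the 10 nearest, and 0 remained when the 6 fresh libraries were used alone.

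A list of 40 other macrophage genes was read beside the members. A row was present for 35 in the fresh and 23 in the cultured table, and 12 of the 35 were missing in culture, among them *Mertk*, *Cd163*, *Siglec1*, *Itgad*, *Hpgd*, *Fcgr1*, *Fcna*, *Ms4a7*, *Cd14*, *Vsig4* and *Pparg*. These held 10 to 130 reads when fresh. In that range of reads lay 23 genes of the list, 12 of them missing, and 2888 genes in all, of which 14.9% were missing. The upper end of the range is the total of *Fcna*, the highest of the missing listed genes, and was thus set by the outcome. Over the whole fresh table, 3.26% of genes were missing in culture.

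Of the 17 listed genes that could be tested for culture, 9 fell and 2 rose in WT, and 7 fell and 2 rose in KO. In the whole table, 18% of genes were lowered and 15.1% raised in WT, and 13% lowered and 10.3% raised in KO. The median log2 change of the 17 was -1.12 in WT and -0.86 in KO, against 0.005 and 0.002 for all genes. A gene could pass the filter on low counts through its fresh libraries alone. *Mrc1*, *Aif1* and *Treml4* averaged 0.545, 0.473 and 0.282 CPM in cultured WT cells. The list was also chosen with earlier results known, so these counts are a description of it. *Mrc1*, the mannose receptor, fell from 4.16, 5.15 and 3.57 CPM to 0.484, 0.625 and 0.527 CPM in WT and from 4.29, 4.59 and 3.44 CPM to 0.263, 0.836 and 0.136 CPM in KO. Its log2 change was -2.94 ± 0.43 in WT (adjusted p = 1.4e-05, edgeR) and -3.22 ± 0.45 in KO (adjusted p = 1.4e-05, edgeR).

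*Axl*, a receptor that helps macrophages take up dying cells, fell in WT by 2.28 ± 0.38 and in KO by 1.76 ± 0.32 on the log2 scale (adjusted p = 6.5e-05 and 0.00032, edgeR). It averaged 3.74 CPM in fresh and 0.721 CPM in cultured WT cells, and it too could pass the filter through fresh libraries alone. The inhibitory receptor *Sirpa* fell by 1.68 ± 0.32 and 1.23 ± 0.32, and *Tyrobp*, the adaptor DAP12, by 1.03 ± 0.15 and 0.86 ± 0.15. *Aif1* fell by 1.91 ± 0.52 and 1.81 ± 0.47, and *Lyz2*, lysozyme, by 1.49 ± 0.34 and 1.04 ± 0.31. In KO, *Aif1* lost its call without KO 4 h replicate 2 (adjusted p = 0.051, edgeR), and *Lyz2* without KO 0 h replicate 2 or KO 4 h replicate 3 (adjusted p = 0.053 and 0.063, edgeR) and with DESeq2 (adjusted p = 0.13).

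*Treml4*, *Fcer1g* and *Emr4* were called lower in WT and not in KO. The *Emr4* call was lost without 4 single libraries, WT 0 h replicate 1 or 3 and WT 4 h replicate 1 or 3 (adjusted p of 0.069 to 0.14, edgeR). It was also lost with library totals or the WT libraries alone (adjusted p = 0.053 and 0.069, edgeR) and with DESeq2 (adjusted p = 0.084). The call of *Fcer1g* was lost without WT 0 h replicate 2 (adjusted p = 0.092, edgeR). *Treml4* had a log2 change of -2.95 ± 0.56 (adjusted p = 0.00034, edgeR) against -1.07 ± 0.53 in KO (adjusted p = 0.16, edgeR). The difference between the genotypes did not pass for *Treml4*, *Fcer1g* or *Emr4* (adjusted p = 0.23, 0.70 and 0.87, edgeR). *Cd68* was at 18.2 ± 2.06 CPM in fresh WT cells and 15.9 ± 4.11 CPM in cultured WT cells, and neither it nor *Maf* or *Itgam* was called in either genotype.

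Against the direction of most of the list, *Apoe*, the lipid carrier that macrophages secrete in quantity, rose in every cultured library. It went from 100.2, 95.3 and 93.9 CPM to 502, 316 and 326 CPM in WT, and from 98.6, 105.5 and 98.2 CPM to 331, 373 and 364 CPM in KO. The log2 change was 1.98 ± 0.12 in WT and 1.82 ± 0.12 in KO (adjusted p = 2.5e-11 and 3.7e-10, edgeR). The summed level of the list, of which *Apoe* was the highest gene, rose in culture. Its group mean went from 333 to 555 CPM in WT and from 339 to 530 CPM in KO. *Mpeg1*, which encodes the pore-forming perforin-2, rose in WT by 0.78 ± 0.15 and fell in KO by 0.90 ± 0.16 (adjusted p = 0.00044 and 0.00026, edgeR). *Lgmn*, a lysosomal protease, rose in KO by 0.21 ± 0.07 (adjusted p = 0.021, edgeR), a call lost without KO 0 h replicate 2 or 3 or KO 4 h replicate 2 or 3 (adjusted p of 0.060 to 0.0996, edgeR).

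*Mpeg1* was also the only one of 22 tested genes of the list that differed by genotype in fresh cells, against 0.987% of all genes. It differed by 0.61 ± 0.12 (KO over WT, adjusted p = 0.022, edgeR). That call was lost without WT 0 h replicate 2, KO 0 h replicate 1 or KO 0 h replicate 3 (adjusted p = 0.067, 0.081 and 0.12, edgeR). At 4 h, 2 of 10 tested genes differed, against 10.9% of all genes. These were *Mpeg1* by -1.08 ± 0.17 and *Lgmn* by 0.33 ± 0.07 (adjusted p = 0.00048 and 0.0052, edgeR).

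**Figure D4:**
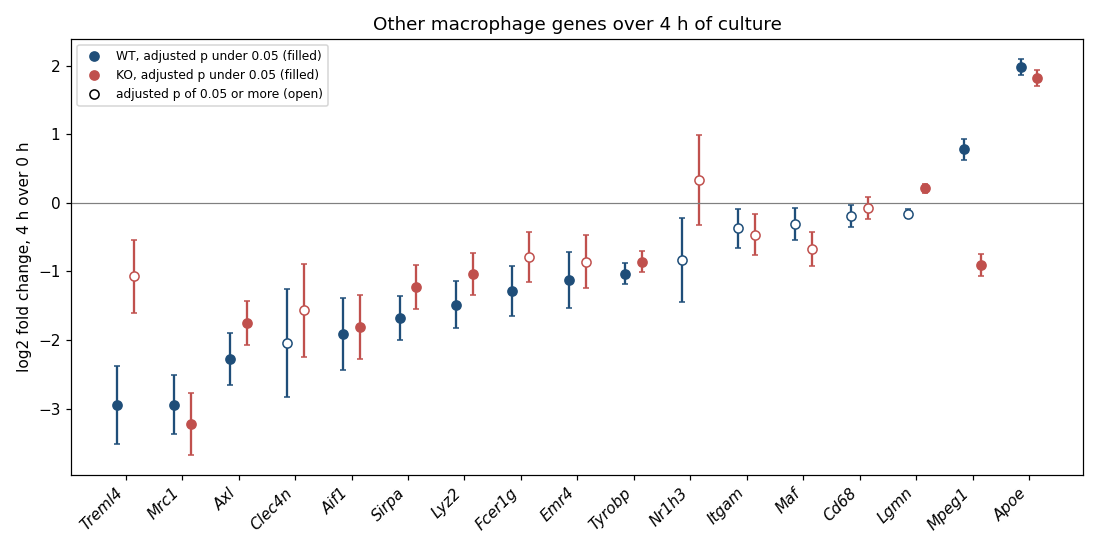
Log2 fold change of 4 h over 0 h (points) with standard errors (bars) for the 17 other macrophage genes that could be tested, in WT and KO, ordered by the WT value; filled points passed an adjusted p of 0.05. Mrc1 lies at -2.94 and -3.22, Apoe at 1.98 and 1.82, and Mpeg1 at 0.78 in WT and -0.90 in KO.

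Around *Hmox1* and *Slc40a1*, 23 genes of iron and heme handling were listed. In WT culture 11 of 19 tested were called, 5 raised and 6 lowered, where 15.1% of all genes were raised and 18% lowered. In KO 3 were called, all lowered, against 10.3% of all genes raised and 13% lowered. *Lrp1*, the receptor for hemopexin-bound heme, fell in WT by 3.83 ± 0.56 and in KO by 4.40 ± 0.61 (adjusted p = 1.4e-05 and 1.2e-05, edgeR). *Trf*, transferrin, fell by 2.89 ± 0.54 and 3.01 ± 0.57 (adjusted p = 0.00026 and 0.00044, edgeR). *Lrp1* and *Trf* averaged 0.299 and 0.420 CPM in cultured WT cells and could pass the filter on low counts through fresh libraries alone. *Blvrb*, a biliverdin reductase, fell by 0.98 ± 0.11 and 0.87 ± 0.10.

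*Tfrc*, the transferrin receptor, and *Bach1*, the repressor of *Hmox1*, rose in WT by 0.51 ± 0.09 and 0.55 ± 0.12 (adjusted p = 9.2e-05 and 0.001, edgeR). In KO their changes were -0.09 ± 0.09 and 0.23 ± 0.12 (adjusted p = 0.53 and 0.18, edgeR), and for *Bach1* the difference between the genotypes did not pass (adjusted p = 0.34, edgeR). The ferritin chains were abundant throughout, with *Fth1* at 1111 ± 75.3 CPM in fresh WT cells and 1369 ± 128 CPM in cultured WT cells, a log2 change of 0.30 ± 0.07 (adjusted p = 0.0025, edgeR). *Fth1* was at 1069 ± 67.1 and 1094 ± 94.4 CPM in KO, and the difference between the genotypes in its culture change did not pass (adjusted p = 0.14, edgeR). At 0 h 1 of 19 tested genes, *Blvrb*, differed between the genotypes, against 0.987% of all genes, and at 4 h 3 of 16 did, against 10.9%. The call at 0 h was lost without WT 0 h replicate 2 or 3, without KO 0 h replicate 1 or 2 and with all 12 libraries in the fit (adjusted p of 0.085 to 0.25, edgeR), and the count at 4 h was 1 without KO 4 h replicate 3.

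For C1q, 27 other complement genes were listed, and 9 of 17 tested were called in WT culture (3 raised, 6 lowered) and 6 in KO (1 raised, 5 lowered), beside the same shares of all genes as for the iron list. *Cfp*, properdin, fell in WT by 1.38 ± 0.17 and in KO by 1.61 ± 0.17 (adjusted p = 1.5e-06 and 3.2e-07, edgeR). *Itgb2*, a chain of complement receptors 3 and 4, fell by 0.54 ± 0.07 and 0.55 ± 0.07. *Cr2*, which encodes CD21/35, a marker used in the sort, was at 1069 ± 45.7 CPM in fresh WT cells although the labels give the cells as negative for the protein, and it fell by 2.75 ± 0.09 and 1.68 ± 0.09. No complement gene of 17 tested was called between genotypes in fresh cells, by edgeR or by DESeq2 (4 at an unadjusted p under 0.05 in edgeR), and 3 of 13 were called at 4 h, against 10.9% of all genes. The count at 0 h was 1 in edgeR with the replicate block, without WT 0 h replicate 2 and without KO 0 h replicate 2. *Cd55*, a complement regulator, had a log2 difference at 0 h of -0.47 ± 0.11 (KO over WT, adjusted p = 0.072, edgeR).

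A last list held 12 partners of the members, such as their ligands and related transcription factors. Of 11 tested, 7 fell in WT culture and 8 in KO, against 18% and 13% of all genes. The lists share some genes, so their counts are not separate. *Tyrobp* is counted here and on the macrophage list, and *Lrp1* on both the iron and the complement list. *Csf1*, a ligand of the CSF1 receptor, fell in WT by 1.08 ± 0.29 and in KO by 1.32 ± 0.30 (adjusted p = 0.0058 and 0.0022, edgeR), and *Cd36*, a scavenger receptor that takes up the product of *Cd5l*, by 1.13 ± 0.17 and 1.19 ± 0.17. *Itgb7*, a chain of an integrin that binds VCAM-1, fell by 1.12 ± 0.07 and 0.64 ± 0.07. *Spib*, a relative of *Spic*, fell by 1.00 ± 0.05 and 0.97 ± 0.05.

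Markers of other blood cells were read in the same libraries. Neutrophil genes (12 of 13 with a row) summed to 25.4 to 68.5 CPM in fresh WT cells, 49.1 to 153 in fresh KO cells, 34.5 to 66.4 in cultured WT cells and 25.5 to 135 in cultured KO cells. Red blood cell genes (8 of 14) summed to 913 to 1388, 808 to 2525, 934 to 1311 and 703 to 1810 CPM in the same order. Both sums overlapped between fresh and cultured cells of each genotype.

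The highest neutrophil and red cell sums of the cultured cells were in KO 4 h replicate 2 (135 and 1810 CPM), which also held 29 of the 33 *Slc40a1* reads of its group. *S100a9* was at 57.4 CPM in it and at 9.87 and 22.8 CPM in the other KO 4 h libraries. *Emr1* was highest in KO 4 h replicate 1, where both sums were the lowest of all cultured libraries (25.5 and 703 CPM). Monocyte genes (8 of 8) summed to 110 to 142 CPM in fresh and 105 to 152 CPM in cultured cells, of which *Ms4a6c* made up most. Their defining gene *Ly6c2* was at 2.28 ± 0.931 CPM in fresh WT cells and 2.54 ± 0.434 in fresh KO cells, and at 0.809 ± 0.283 and 0.502 ± 0.298 after culture. *Vcan* and *Ccr2* went the other way in WT, where *Vcan* was at 0.419 ± 0.342 CPM when fresh and 2.35 ± 0.668 in culture and *Ccr2* at 1.46 ± 0.588 and 2.14 ± 0.876. In KO *Vcan* was at 1.31 ± 1.13 and 3.29 ± 4.23 CPM, and *Ccr2* was lower in culture, at 1.41 ± 0.515 and 0.660 ± 0.569. Of the remaining monocyte genes, *Fn1* was higher on average in cultured WT cells, and *Clec4a3*, *F13a1*, *Chi3l3* and *Ms4a6c* were lower.

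Dendritic cell genes (9 of 11) summed to 171 to 214 CPM in fresh and 184 to 211 CPM in cultured cells. *Cst3* made up most of that sum, at 174 and 159 CPM (WT and KO means) when fresh and 182 and 173 CPM in culture. The defining gene *Zbtb46* was at 0.971 and 0.891 CPM (WT and KO means) when fresh and 2.84 and 1.71 CPM in culture. Other genes of that list were mixed. *Xcr1* was at 0.755 and 0.281 CPM and *Cd209a* at 1.09 and 0.524 CPM in WT (fresh and cultured means), and *Clec9a* had no row in culture. *Itgax* and *Ccr9* were also lower on average in cultured WT cells. *Siglech* was at 0.649 and 0.664 CPM in WT, and *Flt3* at 5.37 and 6.64 CPM in WT and 5.98 and 2.32 CPM in KO. T cell genes (12 of 12) summed to 10.6 to 21.6 and 6.45 to 25.4 CPM, and NK cell genes (9 of 9) to 5.33 to 15.8 and 3.87 to 11.9 CPM. Of the genes of endothelium and stroma 2 of 13 had a row, and *Col1a1* had none in either table. Platelet genes (6 of 9) summed to 65.1 to 108 CPM in fresh and 267 to 343 CPM in cultured WT cells, and to 88.5 to 93.9 and 79.5 to 96.1 CPM in KO. Most of that sum was *Itgb3*, an integrin chain that is not particular to platelets, at 75.6 ± 21.2 CPM in fresh and 306 ± 42.4 CPM in cultured WT cells and 79.2 ± 3.56 and 79.5 ± 8.80 CPM in KO. *Itga2b* was at 1.79 ± 0.815 and 2.47 ± 1.09 CPM in WT, *Ppbp* at 1.57 ± 0.922 and 0.792 ± 0.417, and *Pf4*, at 0.337 and 0.602 CPM in fresh WT and KO cells, had no row in culture. What part the cells behind these markers had in the levels of the 10 genes was not tested.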

How the data were processed

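The libraries were prepared by the authors with NuGEN Ovation RNA-seq System V2 and KAPA Hyper prep, sequenced as single-end reads, aligned to mm10 with STAR and counted with HTSeq, and versions, annotation and strand setting were not given in the sources used here. The authors deposited raw counts per gene as whole numbers, in 1 table for 0 h and 1 for 4 h, and 0 columns were left unmapped. The members and all gene lists were chosen with earlier results of these data known. Counts were scaled by TMM over the 12 libraries for levels, filtered with filterByExpr and tested with edgeR 4.0.16 (quasi-likelihood, Benjamini-Hochberg, threshold 0.05) in R 4.3.3, and with DESeq2 1.42.0 as an alternative. Genotype was compared within each table, and culture and its difference between genotypes over genes in both tables. Standard errors are the log2 change over the root of the F statistic. All members were named, and from each list up to 5 called genes per direction and the highest 3 at 0 h, while *Igf1*, *Lyz2* in WT, *Fcer1g*, *Emr4*, *Cd68*, *Maf* and *Itgam* were named after their values were seen. Reads carry no molecular identifiers, so intervals and floors cover counting error only. The study gives 3 mice per genotype, and p-values measure the spread between these libraries. Replicates differed by more than sampling noise (chi-square per degree of freedom 1.94 to 9.30). Gene positions come from GENCODE on GRCm38, and sequences from RefSeq. Some listed genes are not reported here by name.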

Additional observations from a re-analysis of the deposited data

Results flagged for a closer look

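In 7 named genes that are not members the culture change differed between the genotypes in the test of the difference itself (KO change minus WT change, log2, edgeR over 11572 genes). They were 2 of 17 tested on the macrophage list, 1 of 19 on the iron list, 2 of 17 on the complement list and 2 of 11 partners. Of all genes, 6.39% were called for this difference. With no group larger than 3 libraries, single libraries were not screened as outliers. *Mpeg1* differed by -1.68 ± 0.22 (SE, adjusted p = 2.7e-05, edgeR), since it rose in WT and fell in KO. *Lgmn* differed by 0.37 ± 0.09 (adjusted p = 0.015, edgeR), a call lost without KO 4 h replicate 2 (adjusted p = 0.055, edgeR).

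*Tfrc* differed by -0.60 ± 0.12 (adjusted p = 0.0035, edgeR), with a rise in WT and no call in KO. The complement regulator *Cd55* differed by 1.24 ± 0.18 and *Cr2* by 1.07 ± 0.13 (adjusted p = 7.2e-05 and 6.0e-06, edgeR). *Cd55* fell in WT by 0.79 ± 0.13 and rose in KO by 0.45 ± 0.13 (adjusted p = 0.012, edgeR), a call lost with DESeq2 (adjusted p = 0.076) and without KO 0 h replicate 3 or KO 4 h replicate 2 (adjusted p = 0.081 and 0.089, edgeR). *Itgb7* differed by 0.48 ± 0.10 (adjusted p = 0.0049, edgeR) and the inhibitory Fc receptor gene *Fcgr2b* by -0.34 ± 0.10 (adjusted p = 0.046, edgeR). The *Fcgr2b* call was lost under 12 alternatives, among them the leaving out of 9 of the 12 libraries in turn, with adjusted p up to 0.15 (edgeR).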

How the results depend on the processing

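The summed level of the 10 genes was lower in culture under every alternative, and its KO to WT ratio at 0 h moved by less than the spread between replicates under each. The 4 h to 0 h ratio was 0.391 in KO with library totals alone, 0.385 in WT and 0.442 in KO with the 7 members of both tables, 0.327 in KO without *Cd5l*, and 0.117 in WT and 0.103 in KO without *Spic*, *Cd5l* and *Emr1*, where KO over WT at 4 h was 0.876. Leaving out 1 library at a time gave 0.286 to 0.349 in WT, 0.357 to 0.379 in KO, and 0.917 to 1.03 (0 h) and 1.01 to 1.24 (4 h) for KO over WT. Apart from *Emr1*, the members' log2 estimates of KO over WT within a time ran from -0.38 to 0.35, and several turned sign when 1 library was left out. That of *Emr1* kept its sign under every alternative, at -1.15 to -0.42 at 0 h and 0.11 to 0.87 at 4 h.

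Counts of other macrophage genes under the leaving out of 1 library were 8 to 9 lowered in WT culture, 6 to 8 lowered in KO culture, 0 to 1 called at 0 h, 2 to 3 at 4 h and 1 to 2 for the difference between genotypes. With all 12 libraries in the fit, 0 were called at 0 h, where *Mpeg1* had an adjusted p of 0.073 (edgeR). All genes called were 26 to 161 at 0 h (112 with all libraries, 26 without KO 0 h replicate 1), 776 to 1361 at 4 h (1212, with 776 without KO 4 h replicate 1), 3240 to 3779 for WT culture, 1919 to 2891 for KO culture and 497 to 743 for the difference. Without both KO 4 h replicate 1 and replicate 2, chosen after the levels were seen, the 1 remaining library was assumed to vary like the other groups. The calls were then 289 at 4 h, with 0 of the macrophage list, and 1130 for KO culture, with 4 of the macrophage list lowered and 4 partner genes called. The log2 changes of *Hmox1* and *Vcam1* in KO culture were then -4.06 and -3.95, and the summed ratio in KO was 0.344. With library totals in place of TMM scaling, the median gene rose by 0.11 in WT culture and 0.09 in KO culture (log2), and 66.7% and 66.3% of calls were raised against 45.7% and 44.2%. At 0 h 64.8% were raised against 49.1%.

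Whether same-numbered fresh and cultured libraries came from 1 mouse is not given in the sources used here. Their deviations from the group means correlated at 0.126, 0.072 and 0.117 in WT and at -0.040, 0.145 and 0.152 in KO (replicates 1 to 3), which is not above 0.1 for every pair, so the fits without the block were kept and pairing within a genotype remains possible. Same-numbered WT and KO libraries correlated at -0.099 to 0.073. With the replicate block, 138 genes were called at 0 h, 1062 at 4 h, 3980 for WT culture, 2859 for KO culture and 842 for the difference, and 10 and 9 macrophage genes were lowered in WT and KO culture.

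In cultured cells *Vcam1*, *Hmox1* and *Slc40a1* rest on 0 to 29 reads a library, and the variance of reads over the 6 cultured libraries was 1.05, 3.13 and 9.43 times that of counting error for these genes and 11.2 times for *Emr1*.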
